A study of Mus musculus with 24 samples.

Results

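Pore-forming alpha-1 subunits of voltage-gated calcium channels were followed in sorted sensory neurons of control mice and of mice with a conditional deletion of Tsc2. The members were the 8 genes Cacna1a, Cacna1b, Cacna1c, Cacna1d, Cacna1e, Cacna1g, Cacna1h and Cacna1i, taken by symbol as the rows of this gene family, out of 47643 gene identifiers counted in each library. RNA-seq had been run on GFP-positive cells sorted from dissociated L4 dorsal root ganglia (DRG), the ganglia that hold the cell bodies of the sensory neurons of the limb. All mice had received a crush of the sciatic nerve and the ganglion of the other, uncrushed side was taken 3 days later. All mice carried Nav1.8-Cre and the fluorescent reporter Rosa26-ZsGreen, and they differed at Tsc2, which was flox/+ in control and flox/null in Nav-Tsc2 mice. Both genotypes therefore had a floxed Tsc2 allele, and the controls retained a wild-type allele. The Cre came from a Nav1.8 transgene, Nav1.8 being a sodium channel of nociceptors and some other sensory neurons. According to the study, this Cre is also expressed in a part of the neurons with myelinated axons. It labels a mixture of neuron types rather than a single one. The mice were 8-9 weeks old, of a mixed C57BL/6 and AJ background, and there were 4 of each genotype, with replicates 1 and 2 male and replicates 3 and 4 female. Each mouse gave 3 technical libraries of 100 cells, which were summed here, so that n is the number of mice throughout.

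A voltage-gated calcium channel opens when the membrane depolarizes and lets calcium into the cell, and its alpha-1 subunit forms the pore, the voltage sensor and the binding sites of most channel drugs. The subunits fall into classes by the current they carry. L-type channels (Cacna1c, Cacna1d) couple activity to gene expression, P/Q-type (Cacna1a) and N-type (Cacna1b) channels trigger transmitter release at presynaptic terminals, the R-type channel (Cacna1e) contributes to release and dendritic excitability, and T-type channels (Cacna1g, Cacna1h, Cacna1i) open at low voltage near the resting potential. In DRG neurons the N-type channel is the target of the analgesic ziconotide, and the T-type channel of Cacna1h sets the excitability of several classes of nociceptor and mechanoreceptor.

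The pore is lined by 4 loops, one from each repeat of the protein, and an acidic residue in each loop makes up the selectivity filter for calcium. The stretch of coding sequence around the filter codon of loop 4 is shown because this is where the low-voltage T-type genes part from the others. Sequences are the sense strand, 5′ to 3′, from the GENCODE M21 transcripts on GRCm38 (mm10), 27 bases each and within a single coding exon, with the filter codon in capitals:

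Cacna1a (chr8:84611599-84611625, plus strand, exon 35 of 47): agcgccacaggaGAAgcgtggcacaac

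Cacna1b (chr2:24635213-24635239, minus strand, exon 36 of 47): agtgccactgggGAGgcctggcatgag

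Cacna1c (chr6:118614050-118614076, minus strand, exon 36 of 48): tgtgccaccggaGAGgcctggcaggac

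Cacna1d (chr14:30075944-30075970, minus strand, exon 36 of 49): tgtgcaacagggGAAgcctggcaggag

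Cacna1e (chr1:154425975-154426001, minus strand, exon 37 of 47): agtgccacggggGAGgcttggcaggag

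Cacna1g (chr11:94416415-94416441, minus strand, exon 32 of 38): gtctccactggtGACaactggaatggt

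Cacna1h (chr17:25377771-25377797, minus strand, exon 31 of 35): gtgtccactgggGACaactggaatggg

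Cacna1i (chr15:80388485-80388511, plus strand, exon 31 of 37): gtctccacaggcGATaactggaatggg

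The 5 high-voltage genes, Cacna1a to Cacna1e, carry GAA or GAG, the codons of glutamate, at this place, and the T-type genes carry GAC or GAT, the codons of aspartate. The same division was found in loop 3, while in loops 1 and 2 all 8 genes carry a glutamate codon. The gene counts cover whole genes, so splice forms were not resolved, and nothing in them reports on the protein or on current.

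The 24 libraries held between 8339220 and 34228180 counts on genes, and the summed mice between 47959617 and 61290435. The edgeR fit covered 17178 genes and called 1374 (8.00%) lower and 1567 (9.12%) higher in the Nav-Tsc2 mice, a call being an adjusted p under 0.05 with a log2 fold change beyond 0.5 in size. Values are CPM, the counts of a gene per 1000000 counts on all genes, scaled by the TMM method, and fold changes are Nav-Tsc2 over control. Tsc2 itself, the check of the labels, was at 13.4, 24.7, 21.5 and 24.1 CPM in control replicates 1 to 4 and at 8.70, 8.51, 7.30 and 11.0 CPM in Nav-Tsc2 replicates 1 to 4, without overlap (log2 fold change -1.24, SE 0.22, adjusted p = 0.00400, edgeR). All 9 markers of sensory neurons were detected, and their summed level was 10053 to 11970 CPM in control and 11954 to 14240 CPM in Nav-Tsc2 mice. Markers of satellite and Schwann glia were also present, at a summed 3004 to 3126 CPM in control and 1983 to 2570 CPM in Nav-Tsc2 mice. Neither sum stands for its whole list. The middle marker of each list moved little, by a log2 fold change of -0.14 for sensory neurons and -4.12e-05 for glia. Calls were split for the neuron markers, 2 being lower and 1 higher. Among the 13 glial markers tested, 1 was called lower and 0 higher. In pooled cells of this kind, fewer cells of a type and less RNA per cell cannot be told apart.

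Cacna1e, the R-type pore, showed the largest decrease of the tested members in Nav-Tsc2 neurons, and the L-type pore Cacna1c fell by a smaller amount. The N-type pore Cacna1b, which had the highest level of the 8, differed by less than its standard error. Of the 7 members that had enough counts to be tested, 2 were called lower and 0 higher, beside 8.00% and 9.12% of all genes. The median log2 fold change of those 7 was -0.19, against 0.0082 over all genes tested. The values of the 4 mice did not overlap between genotypes for 3 members that were lower (Cacna1c, Cacna1e and Cacna1h) and 1 that was higher (Cacna1a) in Nav-Tsc2, beside 12.3% and 14.6% of all genes. The remaining members were Cacna1g, which was too low to test, and 3 that overlapped (Cacna1b, Cacna1d and Cacna1i).

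**Figure D1:**
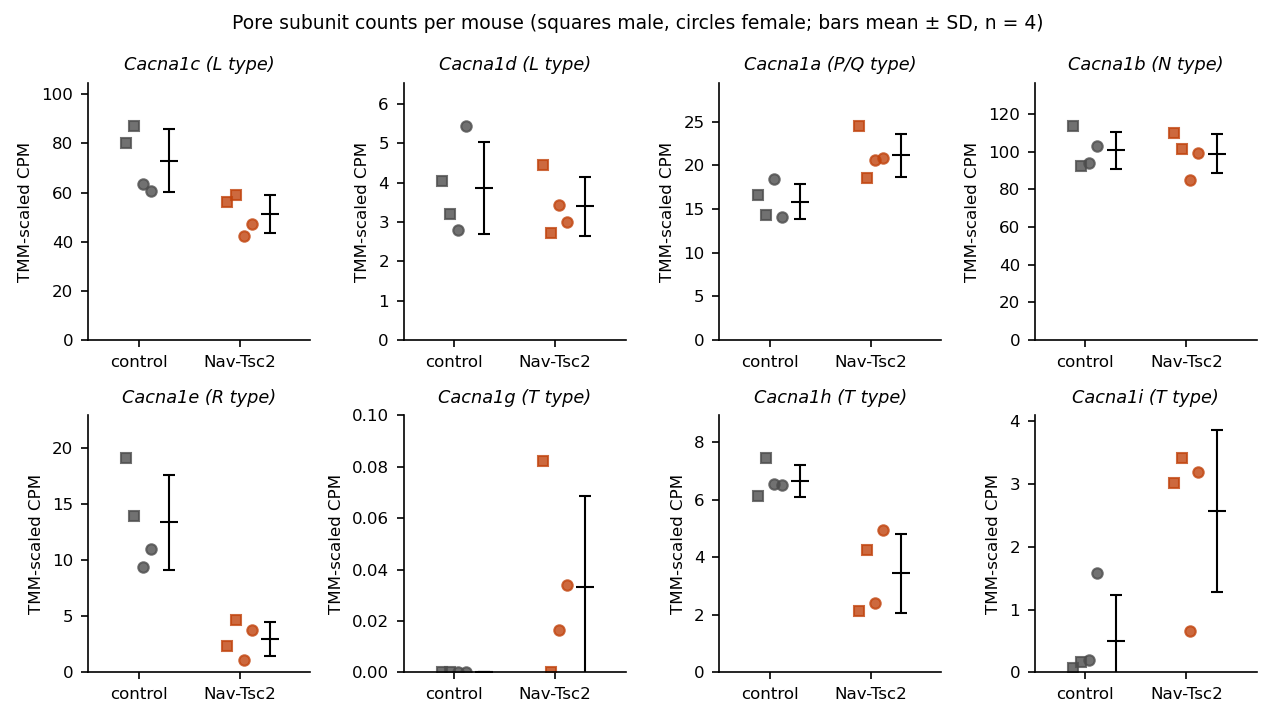
Level of each pore subunit in each mouse, in TMM-scaled CPM on a linear axis from 0, with a separate scale for each gene. Gray is control and orange Nav-Tsc2, squares are male and circles female mice, and bars give the mean ± SD of 4 mice, with lower ends below 0 left out. Cacna1e lies between 9.41 and 19.1 CPM in control and between 1.14 and 4.67 CPM in Nav-Tsc2 mice, while Cacna1b covers about the same range in both.

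The plot of levels by mouse shows each of these values. Cacna1e (ENSMUSG00000004110, chr1:154390731-154884501, minus strand) stood at 19.1, 13.9, 9.41 and 10.9 CPM in control replicates 1 to 4. In Nav-Tsc2 replicates 1 to 4 it stood at 2.32, 4.67, 1.14 and 3.74 CPM. All 4 Nav-Tsc2 mice lay below the lowest control, in the males and in the females alike. The means were 13.3 ± 4.26 and 2.97 ± 1.55 CPM (SD, n = 4), a 4.49-fold decrease with a log2 fold change of -2.17 (SE 0.42, adjusted p = 0.00639, edgeR). The call was kept in 15 of 16 other settings, and was lost when the 24 libraries were fitted with the mouse as a random effect (log2 fold change -2.27, SE 0.95, adjusted p = 0.0653, limma-voom).

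The libraries of a single mouse differed widely in Cacna1e. Among the 12 control libraries 8 were above 10 CPM, and the highest held 23.1 CPM. The lowest held 0.156 CPM and came from replicate 3, whose other libraries held 0.624 and 17.3 CPM. The low control libraries were thus in the same mouse as a library as high as those of the other mice. In Nav-Tsc2 libraries the values ran from 0.143 to 7.35 CPM, with 0 of 12 above 10 CPM. The library with the most reads of Cacna1e held 48.0% of the mouse's count in the median control mouse and 78.5% in the median Nav-Tsc2 mouse. For Cacna1b, which is spread evenly, these shares were 46.3% and 43.5%.

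Cacna1e moved over libraries with markers of peptidergic nociceptors, neurons that release neuropeptides such as CGRP and substance P. On log2(CPM + 1) values less the genotype mean, Pearson's r with the mean of the 7 markers was 0.66 over the 24 libraries of 8 mice, and 0.50 once the mean of each mouse was removed, an alternative chosen after seeing the data. These points share mice, sorting and library depth, so r is given as a description. Before mouse means were removed, this pair had the highest r of all pairs of a tested member with a list of neuron markers. The pair of Cacna1i given below was next. With mouse means removed, the pair of Cacna1i had the highest r, at 0.69. The pair of Cacna1e, at 0.50, was then also below Cacna1c with Mrgpra3 itch neuron markers. Other pairs were not far from them. Cacna1c with Mrgpra3 itch neuron markers had r = 0.52, and 0.55 with mouse means removed. Cacna1a with A-fiber markers had r = -0.48, and -0.60 with mouse means removed. The summed level of the peptidergic nociceptor markers was 9682 to 19727 CPM in control and 4326 to 7119 CPM in Nav-Tsc2 mice. Of these 7 markers, 3 were called lower and 0 higher, and none was at 0. Control replicates 1 to 4 were at 19727, 19151, 9682 and 10173 CPM, and in both genotypes the males were above the females. Cacna1e was also higher in the control males than in the control females. The part of sex in these levels was not tested. The part of the marker difference in the fall of Cacna1e was not tested. The genes whose library pattern was most like that of Cacna1e among 8453 genes were Cpne4 (r = 0.84), Plcb1 (0.81), Pde4dip (0.78), Pnkd (0.78) and Sulf1 (0.77), of which Plcb1 encodes a phospholipase C.

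**Figure D2:**
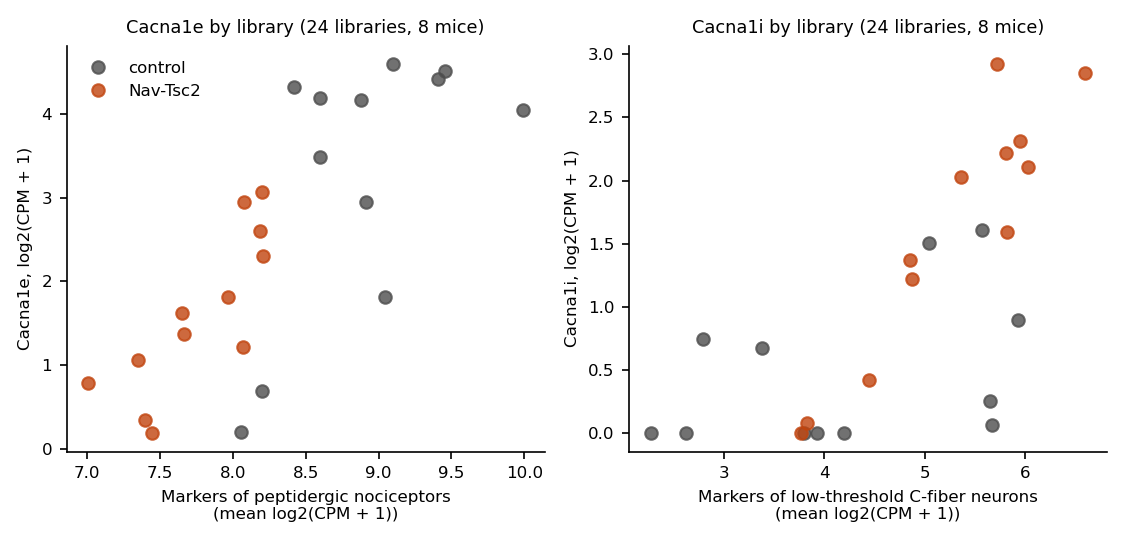
Level of Cacna1e (left) and Cacna1i (right) against the mean level of 7 peptidergic nociceptor and 6 low-threshold C-fiber markers, all as log2(CPM + 1), 1 point for each of the 24 libraries, gray for control and orange for Nav-Tsc2. Within each genotype Cacna1e is higher where peptidergic markers are higher (r = 0.66 over 24 libraries with genotype means removed), and Cacna1i is higher where the low-threshold C-fiber markers are higher (r = 0.63).

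Cacna1c (ENSMUSG00000051331, chr6:118587240-119196418, minus strand), the main L-type pore of most excitable cells, was at 80.1, 87.1, 63.4 and 60.7 CPM in control replicates 1 to 4. In Nav-Tsc2 replicates 1 to 4 it was at 56.3, 59.0, 42.5 and 47.1 CPM. Every Nav-Tsc2 mouse was below every control, and in both genotypes the 2 males were above the 2 females. The means were 72.8 ± 12.8 and 51.2 ± 7.70 CPM (SD, n = 4), a 1.42-fold decrease (log2 fold change -0.51, SE 0.15, adjusted p = 0.0407, edgeR). The call lay close to both thresholds. It was lost when control replicate 1 or 2 or any Nav-Tsc2 mouse was left out, with adjusted p up to 0.109 and log2 fold changes between -0.59 and -0.41. With sex as a covariate the log2 fold change was -0.50 (SE 0.085, adjusted p = 0.00433, edgeR).

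No library of Cacna1c was near 0, with values from 45.3 to 123 CPM in control and from 38.6 to 64.4 CPM in Nav-Tsc2. The 123 CPM was that of a single library of control replicate 2, whose other libraries held 67.0 and 75.3 CPM. The part of that library in the decrease was not tested. Cacna1c is also the L-type pore of smooth muscle. The 6 smooth muscle and pericyte markers summed to 5.59 to 47.8 CPM in control and 20.1 to 149 CPM in Nav-Tsc2 mice, with overlap. Of the 4 tested, 0 were called lower and 2 higher, and the part of these markers in the level of Cacna1c was not tested. The genes closest to it over the 24 libraries were Ctxn1 (r = 0.82), Stac (0.79), Ccdc88a (0.76), Unc5b (0.74) and Tmeff1 (0.74). Stac encodes an adaptor protein that binds L-type channels.

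Cacna1d (ENSMUSG00000015968, chr14:30039939-30491455, minus strand), the L-type pore that opens at more negative voltages than that of Cacna1c, was at 4.05, 3.20, 2.80 and 5.44 CPM in control and at 4.44, 2.72, 3.43 and 3.01 CPM in Nav-Tsc2 replicates 1 to 4. The genotypes overlapped, with the highest and the second lowest value both in control mice. The log2 fold change was -0.19 (SE 0.31, adjusted p = 0.729, edgeR), so that a difference of the size seen for Cacna1c was not detectable with this spread. Single libraries of Cacna1d ran from 0.527 to 13.2 CPM in control and from 1.15 to 7.07 CPM in Nav-Tsc2, and the top library held 60.9% of a mouse's count in the median mouse. Its closest genes over libraries were Herpud2 (r = 0.78), Bicd1 (0.78), Ybx1 (0.75), Trim33 (0.73) and Meg3 (0.72). Of the exon bases of Cacna1d, 4.67% overlap Chdh on the other strand.

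Cacna1b (ENSMUSG00000004113, chr2:24603887-24763152, minus strand), the N-type pore, was at 113.8, 92.6, 93.9 and 103.2 CPM in control replicates 1 to 4. Its values in Nav-Tsc2 replicates 1 to 4 were 110.2, 101.5, 85.1 and 99.5 CPM. The genotypes covered about the same range, and replicate 1 was the highest mouse of both. The means were 100.9 ± 9.81 and 99.1 ± 10.4 CPM (SD, n = 4), with a log2 fold change of -0.026 (SE 0.11, adjusted p = 0.897, edgeR). Its libraries were also the most even of the 8 members, from 76.0 to 136 CPM over control and from 80.1 to 112 CPM over Nav-Tsc2.

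Cacna1a (ENSMUSG00000034656, chr8:84388440-84640246, plus strand), the P/Q-type pore, was at 16.7, 14.3, 18.4 and 14.1 CPM in control replicates 1 to 4. In Nav-Tsc2 replicates 1 to 4 it was at 24.5, 18.6, 20.6 and 20.9 CPM. The genotypes did not overlap, but the lowest Nav-Tsc2 mouse was separated from the highest control by a small gap, 18.6 against 18.4 CPM. The means were 15.9 ± 2.04 and 21.1 ± 2.48 CPM (SD, n = 4), and the log2 fold change of 0.41 (SE 0.15, adjusted p = 0.0743, edgeR) did not pass either threshold. Between genotypes the ratio of Cacna1b to Cacna1a, in CPM per kilobase of exon, was 7.39 ± 1.08 in control and 5.41 ± 0.65 in Nav-Tsc2 mice (SD, n = 4), with overlapping ranges of 5.86 to 8.38 and 4.74 to 6.28. Of the exon bases of Cacna1a, 3.81% overlap a transcript on the other strand.

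Among the T-type genes, Cacna1h (ENSMUSG00000024112, chr17:25374285-25433783, minus strand) was at 6.13, 7.44, 6.55 and 6.51 CPM in control replicates 1 to 4. In Nav-Tsc2 replicates 1 to 4 it was at 2.14, 4.26, 2.42 and 4.94 CPM. The controls lay close together and all above the Nav-Tsc2 mice, which fell into a lower pair (replicates 1 and 3) and a higher pair (replicates 2 and 4). The means were 6.66 ± 0.55 and 3.44 ± 1.38 CPM (SD, n = 4), with a log2 fold change of -0.95 (SE 0.31, adjusted p = 0.0570, edgeR), which missed the threshold. It passed with DESeq2 (adjusted p = 0.0151), with the mouse as a random effect in limma-voom (adjusted p = 0.0492) and without Nav-Tsc2 replicate 4 (adjusted p = 0.0384, edgeR). Over the other 13 settings the call was not made.

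Cacna1i (ENSMUSG00000022416, chr15:80287238-80398279, plus strand) was close to 0 in most control mice and higher in most Nav-Tsc2 mice, but with the widest spread of the tested members. It had 4, 9, 11 and 79 counts, or 0.068, 0.17, 0.2 and 1.59 CPM, in control replicates 1 to 4. In Nav-Tsc2 replicates 1 to 4 it had 147, 193, 40 and 189 counts, or 3.02, 3.41, 0.653 and 3.20 CPM. Control replicate 4 stood above the other controls and above Nav-Tsc2 replicate 3, so the genotypes overlapped. The log2 fold change was 2.35 (SE 0.96, adjusted p = 0.117, edgeR) and was not called. Without control replicate 4 it was 4.12 (adjusted p = 0.00777, edgeR), and DESeq2 on all 8 mice gave 2.34 (adjusted p = 0.0355).

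In single libraries, Cacna1i was at 0 in 5 of 12 control and 1 of 12 Nav-Tsc2 libraries, and above 1 CPM in 2 control and 9 Nav-Tsc2 libraries. Its level followed the 6 measured markers of low-threshold C-fiber neurons, unmyelinated afferents of light touch. Here r was 0.63 over the 24 libraries and 0.69 with the mean of each mouse removed. With the A-fiber markers r was 0.28, and 0.49 with mouse means removed. The low-threshold C-fiber markers summed to 221 to 557 CPM in control and 287 to 1661 CPM in Nav-Tsc2 mice. Of them 1 was called lower and 1 higher, and none was at 0. The marker called higher was Th, whose mean went from 99.4 to 865 CPM (log2 fold change 3.12). The higher sum was largely that of Th and does not stand for the whole list. Nav-Tsc2 replicate 3, the lowest of its genotype in Cacna1i, was also the lowest of its genotype in these markers, at 287 CPM. The part of these markers in the level of Cacna1i was not tested. The genes most like it over libraries were Mcam (r = 0.80), Ighg2c (0.77), P2ry1 (0.72), Th (0.69) and Cemip2 (0.66), of which Th, tyrosine hydroxylase, is in the marker list.

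Cacna1g (ENSMUSG00000020866, chr11:94408391-94474198, minus strand), the third T-type pore, was at 0 in all 12 control libraries and at 4, 0, 1 and 2 counts in Nav-Tsc2 replicates 1 to 4. A count of 0 in 220564026 control counts allows a level of up to 0.0136 CPM, a limit that covers counting error only. With 7 counts in 3 of the 12 Nav-Tsc2 libraries, it was not tested and no fold change is given. Of the T-type genes, Cacna1h therefore made up most of the level in control mice, at 4.14 to 91.4 times that of Cacna1i per kilobase. In Nav-Tsc2 mice this ratio was 0.715 to 3.74, below the control range, and Cacna1h and Cacna1i had overlapping levels.

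**Figure D3:**
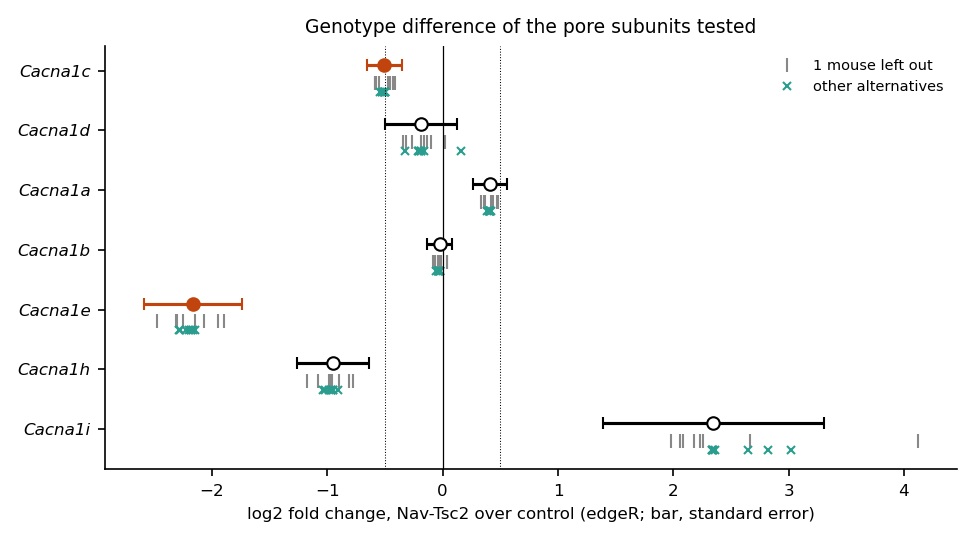
Log2 fold change of the 7 tested pore subunits, Nav-Tsc2 over control, with filled points for genes called and open points for genes not called, and bars for the standard error of edgeR on 4 against 4 mice. Gray ticks are the fits with 1 mouse left out, green crosses the other alternatives, and dotted lines the fold thresholds of 0.5 in size. Cacna1e stays between -2.48 and -1.90, and Cacna1i runs from 1.98 to 4.12.

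The plot of fold changes with their alternatives shows that each member other than Cacna1b and Cacna1d kept its direction in all 16 alternatives run. Cacna1b and Cacna1d changed sign in 2 of 16 each, at values near 0. A genotype-by-sex term was fitted for all genes, since each genotype had 2 males and 2 females. Of the 7 members, 0 passed at the adjusted threshold and 0 at an unadjusted p under 0.05 (edgeR), where the fit over all genes called 1 of 17178 (0.00582%) and had 1583 at an unadjusted p under 0.05. The smallest interaction p of the members was that of Cacna1i, whose log2 fold change was 4.74 in males and 1.11 in females, a difference of -3.63 (SE 1.59, p = 0.0535, adjusted p = 0.549, edgeR). For Cacna1e the log2 fold change was -2.24 in males and -2.06 in females, and for Cacna1c it was -0.54 and -0.47. The standard error of the difference between the sexes ran from 0.17 for Cacna1c to 1.59 for Cacna1i, so the size that could be detected differed between members.

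To compare levels between genes, CPM were divided by the length of the merged exons in kilobases. On this scale Cacna1b led in control mice with 10.1 ± 0.99 CPM per kilobase (SD, n = 4), above Cacna1c at 3.44 ± 0.60 and Cacna1a at 1.39 ± 0.18, each apart from the next. Cacna1h (0.682 ± 0.057), Cacna1e (0.529 ± 0.17) and Cacna1d (0.307 ± 0.093) followed, and neighbors in that order overlapped. Cacna1i (0.051 ± 0.073) came after them and Cacna1g last. In Nav-Tsc2 mice Cacna1b led again with 9.96 ± 1.05, and Cacna1c (2.42 ± 0.36) and Cacna1a (1.85 ± 0.22) now overlapped. Below them Cacna1h (0.352 ± 0.14), Cacna1d (0.270 ± 0.060), Cacna1i (0.261 ± 0.13) and Cacna1e (0.118 ± 0.062) each overlapped with the next. Part of this order rests on the length used, since the merged exons of Cacna1e and Cacna1c are long. Per kilobase of the longest transcript or of coding sequence, orders looked at after seeing the data, Cacna1b, Cacna1c and Cacna1a kept their places and Cacna1c and Cacna1a were apart in Nav-Tsc2 mice as well. Their Nav-Tsc2 levels were 3.89 ± 0.59 and 2.67 ± 0.31 by longest transcript, and 7.68 ± 1.16 and 2.98 ± 0.35 by coding length. In control mice Cacna1e then stood above Cacna1h. By longest transcript they were at 0.894 ± 0.29 and 0.809 ± 0.067, with overlap. By coding length they were at 1.96 ± 0.62 and 0.941 ± 0.078, without it. On that last scale Cacna1e overlapped with Cacna1a in control mice, which was at 2.23 ± 0.29. In Nav-Tsc2 mice Cacna1e was below Cacna1i by longest transcript and above it by coding length, with overlap each time.

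Added up by class, the 8 pores came to 16.5 ± 1.30 CPM per kilobase in control and 15.2 ± 1.63 in Nav-Tsc2 mice (SD, n = 4). The N type took 61.3 ± 2.90% of this sum in control and 65.4 ± 0.55% in Nav-Tsc2. The L type took 22.6 ± 2.92% and 17.6 ± 1.18%, and the R type 3.15 ± 0.76% and 0.759 ± 0.38%. These 3 classes did not overlap between genotypes, the N type being higher and the others lower in Nav-Tsc2. The P/Q type took 8.44 ± 1.38% in control and 12.2 ± 1.51% in Nav-Tsc2 and the T type 4.47 ± 0.72% and 4.00 ± 1.44%, with overlap between genotypes for each. Shares of a sum move together by construction, and no test was made of them. The level of the N type was itself about equal, at 10.1 ± 0.99 and 9.96 ± 1.05 CPM per kilobase, so its higher share came beside a lower sum of the other classes.

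**Figure D4:**
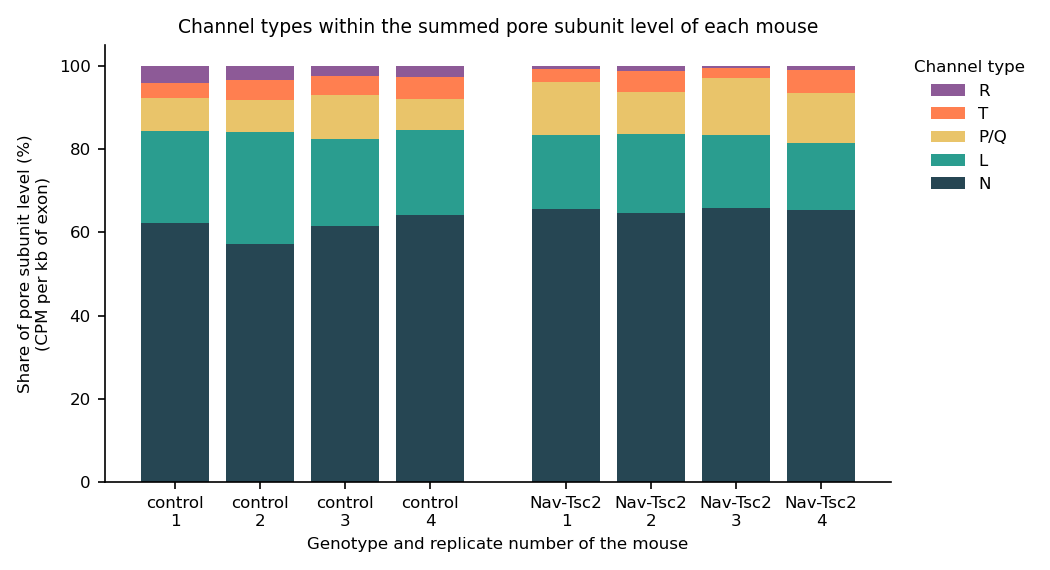
Share of each channel class in the summed pore subunit level of each mouse, in percent of CPM per kilobase of exon, as stacked bars for 4 control and 4 Nav-Tsc2 mice. The N type fills 57.3 to 64.2% in control and 64.6 to 65.8% in Nav-Tsc2 mice, and the R type 2.43 to 4.11% and 0.348 to 1.17%.

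The shares drawn in the stacked plot rest on the exon length used. Merged exons came to 25228 bases for Cacna1e and 21191 for Cacna1c, against 9763 to 12621 for the other members, while the coding lengths were alike, at 6537 to 7143 bases. By coding length, an alternative added after seeing the data, the R type took 6.18% in control and 1.60% in Nav-Tsc2, the L type 36.9% and 30.7%, and the N type 46.4% and 53.2%. The direction between genotypes was the same for each of the 5 classes with each of the 3 lengths used.

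Auxiliary subunits set how much of the pore reaches the membrane and how it gates. Of 16 such genes 12 were tested, with 3 called lower and 1 higher and a median log2 fold change of -0.34. Cacna2d1, the alpha-2-delta subunit that binds gabapentin, rose from 349 ± 95.2 to 543 ± 38.2 CPM (SD, n = 4) without overlap (log2 fold change 0.64, SE 0.16, adjusted p = 0.0228, edgeR). Its call was lost in 5 of 8 fits with a mouse left out. Cacnb4, a cytoplasmic beta subunit, fell from 132 ± 36.5 to 67.6 ± 9.14 CPM, also without overlap (log2 fold change -0.97, SE 0.18, adjusted p = 0.00535, edgeR), and 16.0% of its exon bases overlap other genes. The other genes called were Cacng3 (log2 fold change -3.16) and Cacng4 (-2.50), which are named as calcium channel gamma subunits and are known mainly as auxiliary subunits of AMPA receptors. Cacnb3, the beta subunit paired with N-type channels in many neurons, was at 78.1 ± 13.0 and 74.2 ± 7.92 CPM with overlap (log2 fold change -0.073, SE 0.13, adjusted p = 0.753, edgeR). Cacna1f and Cacna1s, L-type pores of retina and skeletal muscle, were too low to test.

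**Figure D5:**
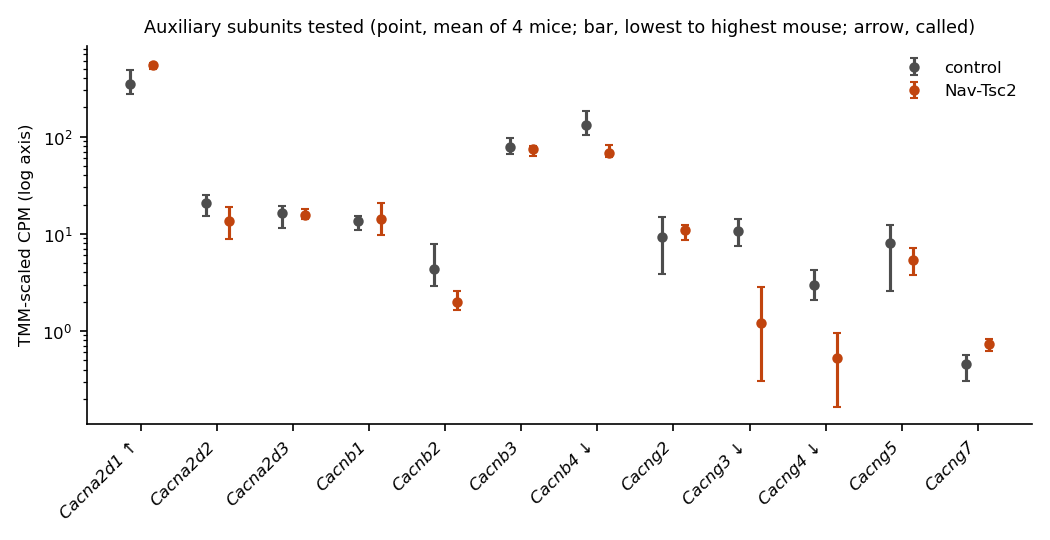
Level of the 12 auxiliary subunit genes tested, in TMM-scaled CPM on a log axis, with points for the mean of 4 mice and bars from the lowest to the highest mouse, gray for control and orange for Nav-Tsc2. Arrows mark the 4 genes called, Cacna2d1 higher and Cacnb4, Cacng3 and Cacng4 lower.

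The plot of auxiliary subunits sets these genes beside each other. Among regulators and binding partners of the channels, 16 of 19 genes were tested, with 2 called lower and 1 higher and a median log2 fold change of -0.24. Stac2, an adaptor that slows the inactivation of L-type channels, rose from 11.4 ± 5.97 to 45.5 ± 15.2 CPM (log2 fold change 1.99, SE 0.38, adjusted p = 0.00561, edgeR).

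Of the release machinery that lies beside P/Q-, N- and R-type channels at terminals, 13 of 13 genes were tested. Of these 5 were called lower and 0 higher, beside 8.00% and 9.12% of all genes. The median log2 fold change of the list was -0.21. The smallest adjusted p was that of Syt2, a fast calcium sensor synaptotagmin of release, which went from 46.5 ± 13.4 to 5.99 ± 0.93 CPM (log2 fold change -2.96, SE 0.23, adjusted p = 6.09e-05, edgeR). Syt1, another synaptotagmin of the list, had the higher level and was not called. It was at 173 ± 61.3 CPM in control and 233 ± 5.21 CPM in Nav-Tsc2 mice, with overlap (log2 fold change 0.43, SE 0.21, adjusted p = 0.192, edgeR). Among calcium-activated channels 5 of 6 were tested. Kcnn2, a small-conductance potassium channel, was called lower (log2 fold change -0.98, SE 0.24, adjusted p = 0.0181) and Kcnma1, the large-conductance one, higher (0.94, SE 0.23, adjusted p = 0.0177), both by edgeR.

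Downstream of calcium entry, 15 of 18 genes of clearance, buffers and stores were tested, with 4 called lower and 1 higher and a median log2 fold change of -0.28. Atp2b1, a calcium pump of the plasma membrane, had the smallest adjusted p of those lower (log2 fold change -1.03, SE 0.12, adjusted p = 0.000533, edgeR), and Itpr3, an IP3 receptor, was the gene called higher (1.30, SE 0.41, adjusted p = 0.0487, edgeR). Of calcium-dependent signaling to the nucleus 13 of 14 genes were tested, with 3 called lower and 0 higher and a median of -0.062. Ppp3ca, a catalytic subunit of calcineurin, went from 2290 ± 433 to 774 ± 62.2 CPM (log2 fold change -1.57, SE 0.14, adjusted p = 0.000114, edgeR). The other catalytic subunits of the list, Ppp3cb (log2 fold change -0.062, SE 0.094) and Ppp3cc (-0.053, SE 0.21), overlapped between genotypes and were not called.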

How the data were processed

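The authors sorted cells, amplified cDNA with a SMARTer kit, sequenced single 50-base reads, aligned them to mm10 with STAR and counted them with HTSeq. They deposited whole-number counts per gene and library, without normalization. The strand setting of the counting was not given in the sources used here. A further deposited table holds the authors' scaled counts, fold changes and p-values and was not used. Entries that name no gene made up 47.6 to 51.5% of control and 49.0 to 55.9% of Nav-Tsc2 library totals and were left out. Reads carried no molecular identifiers, so limits from counts cover counting error only, and mice rather than libraries were the replicates.

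The libraries of each mouse were added together and fitted with edgeR 4.0.16 (TMM, filterByExpr, quasi-likelihood F-test) in R 4.3.3 without covariates, with Benjamini-Hochberg adjustment over 17178 genes. Standard errors are the log2 fold change over the square root of F. Alternatives used DESeq2 1.42.0 and limma 3.58.1 (voom, consensus correlation of libraries of a mouse 0.0785). The fit was tested on simulated data with 16628 genes. It recovered 53 of 100 genes set to a log2 fold change of 1 in size and 76 of 100 set to 2, with 10 false calls. Many differences of these sizes would thus not be called. Genes named were all members, Tsc2, for each list the lowest adjusted p of the genes called in each direction, and, for members that were called or uneven between libraries, the 5 genes with the highest r among those with a mean of at least 10 CPM. Cacng3, Cacng4, Cacnb3, Syt1, Ppp3cb, Ppp3cc, Nppb, Sst, Il31ra and Nts are outside the rule and were picked once their values had been seen. Cacna1g, with 7 counts, was left out of that search. A gene named by the rule is not reported here. The members and lists were chosen with earlier results of these data known. Gene positions and lengths are those of GENCODE M21 (GRCm38).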

Additional observations from a re-analysis of the deposited data

Results flagged for a closer look

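Groups of 4 mice were screened for a mouse far from the rest (Dixon's gap test at the 95% level), over 25 groups of member levels and class shares, where chance flags about 1 in 20, and 3 groups were marked. Cacna1i stood at 1.59 CPM in control replicate 4, above the other controls at 0.068, 0.17 and 0.2 CPM. In Nav-Tsc2 replicate 3 Cacna1i stood at 0.653 CPM, below the other Nav-Tsc2 mice at 3.02, 3.41 and 3.20 CPM. The share of the P/Q type was 10.5% in control replicate 3, above the other controls.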

How the results depend on the processing

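Cacna1a kept its direction and no call in 16 of 16 alternatives. With DESeq2, Cacna1h (-0.97, log2 fold change) and Cacna1i (2.34) passed and 1 member was called higher. Over all 17178 genes DESeq2 called 1770 lower and 1907 higher, against 1374 and 1567 in the main fit. With 24 libraries and the mouse as a random effect, Cacna1d turned to 0.16, Cacna1e was no longer called (-2.27) and Cacna1h was called (-1.02). That fit called 1253 genes lower and 2207 higher of 13880 tested. Leaving out each mouse, 1 to 2 members were called lower and 0 to 1 higher, 3 to 5 auxiliary subunits lower and 0 to 1 higher (5 lower without control replicate 3, and 0 higher when control replicate 2 or 4, or replicate 2, 3 or 4 of Nav-Tsc2, was left out). Over all genes, of which 17714 to 17933 were tested, the fits without a mouse called 995 to 1577 lower and 1150 to 1925 higher. Both counts were highest without control replicate 3. Over those fits the log2 fold change was -0.080 to 0.042 for Cacna1b, above 0 without control replicate 1 or Nav-Tsc2 replicate 3. It was -0.59 to -0.41 for Cacna1c, -0.34 to 0.021 for Cacna1d, above 0 without control replicate 4, -1.18 to -0.78 for Cacna1h and 1.98 to 4.12 for Cacna1i. With the length of the longest transcript, the shares in control and Nav-Tsc2 were 29.5% and 23.6% for the L type, 10.0% and 14.9% for P/Q and 51.7% and 56.6% for N, and 4.40% in control for R. With coding length, added after seeing the data, they were 36.9% and 30.7% for L, 46.4% and 53.2% for N, 6.18% and 1.60% for R, and 3.30% in control for T. The planned length from a protein table was not run. The causes of these changes were not tested.

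Whether equal replicate numbers pair the mice depended on the scale. Deviations from the genotype means correlated across 8445 genes, which are not independent, at 0.0831, 0.108, 0.0187 and 0.107 for replicates 1 to 4 on log2(CPM + 1), not all above the limit of 0.1, and at 0.184, 0.185, 0.108 and 0.199, all above it, on edgeR's log2 CPM, added after seeing the data. With a replicate block, 1116 genes were called lower and 1329 higher, 2 members lower (Cacna1c -0.50, Cacna1e -2.29) and 0 higher, and no call of a member changed.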

Other observations

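The neuron types within the sort were followed by their markers, as summed CPM per mouse. The 7 markers of nonpeptidergic nociceptors came to 542 to 1867 CPM in control and 1886 to 2025 CPM in Nav-Tsc2 mice, without overlap, and 0 of 7 were called. Control replicates 1 to 4 were at 593, 542, 1867 and 1552 CPM. The 2 control females thus lay near the Nav-Tsc2 mice and the 2 control males far below, a split that was not tested. The 7 markers of Nppb itch neurons came to 80.3 to 470 and 1302 to 3204 CPM, but their median log2 fold change was -1.49, with 3 of 7 called lower (Nppb, Sst and Il31ra) and 1 higher. The sum followed Nts, the gene called higher, whose mean went from 72.5 to 2012 CPM (log2 fold change 4.79). The 9 A-fiber markers came to 1249 to 1749 and 881 to 1105 CPM with 2 called lower, and the 4 markers of Mrgpra3 itch neurons to 31.3 to 93.5 and 27.5 to 39.0 CPM with 1 of 3 tested called lower. Of cells that are not neurons, the 7 endothelial markers came to 12.1 to 21.5 and 19.7 to 34.9 CPM, with 3 of 4 tested called higher. The 7 macrophage markers came to 1.77 to 7.11 and 7.90 to 19.4 CPM, the 6 fibroblast markers to 73.1 to 236 and 121 to 196 CPM, and the 5 red blood cell markers to 1.63 to 2.80 and 0.473 to 0.672 CPM.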
